A study of Mus musculus with 12 samples.

Results

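Toll-like receptors, NOD-like receptors and C-type lectins were followed in mouse bone marrow cells that carried mutant SETBP1, mutant NRAS, both or neither. The members were all genes of the deposited table whose symbol starts with Tlr, Nlrp, Nlrc, Nod or Clec and a number, with 1 matching symbol left out. This gave 63 of 19910 genes, of which 12 were Toll-like receptors, 21 were Nod, Nlrc or Nlrp genes and 30 were Clec genes. Marrow of female C57BL/6J mice aged 6 to 10 weeks was transduced with retrovirus made in the 293T17 packaging line, and all 4 groups received vector. The empty-vector group carried empty vectors alone, the SETBP1 group SETBP1 (D868N) with empty vector, the NRAS group NRAS (G12D) with empty vector, and the double-mutant group both alleles. Each group had 3 libraries, which the labels describe as murine leukemia cells from bone marrow. Expression was driven from a retroviral vector rather than the endogenous locus, and the promoter is not given in the sources used here. The labels number the replicates without saying whether they were separate mice, so the p-values measure only the spread between these libraries.

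Toll-like receptors bind microbial lipids and proteins at the cell surface or nucleic acids in endosomes, and signal through adaptors such as MyD88 and TRIF. NOD-like receptors are cytosolic sensors, some of which assemble inflammasomes that activate caspase-1, and C-type lectins recognise sugars and other ligands through a shared lectin fold. In myeloid cells the Dectin-2 group of C-type lectins contains receptors that pair with the activating adaptor FcRγ and relatives that carry an inhibitory motif of their own.

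Total counts ran from 7085894 to 8864919 per library. Levels are given as normalised CPM, counts set to a common library size, after scaling of each library by the trimmed mean of M-values. Nras counts ran from 626 to 741 in the 6 libraries without the NRAS vector and from 10517 to 13502 in the 6 with it. Setbp1 was at 0 in the 6 libraries without the SETBP1 vector and had 5 to 17 counts in the others, so both genes followed the labels. Replicate 3 of the SETBP1 group stood apart, with Pearson correlations of 0.946 and 0.953 to its group across genes, against 0.984 to 0.991 for all other pairs of replicates. Results of the members in that group are therefore also given without it. The tests of partner genes, other lectins and cell markers are given only with it. Of the defining marrow markers, genes of monocytes and macrophages were present in all libraries (summed normalised CPM 3420 to 5716), mostly as Ly6c2 (mean 3250 with empty vectors). The 10 genes summed to 4215 to 4624 with empty vectors and 4583 to 5716 with SETBP1. Their sums were lower with NRAS (3668 to 4022) and with both (3420 to 3799). With NRAS 1 of the 9 tested was called higher (Mrc1) and 4 lower, 55.6% beside 32.5% of all genes. With both against empty vectors 3 were called higher and 2 lower, 55.6% beside 40.6%. Genes of lymphoid and erythroid cells were low. The 8 T and NK cell genes summed to 4.72 to 10.7 normalised CPM, nearly all of it Lck, with Cd3e, Cd8a and Ncr1 at 0 throughout. The 6 B cell genes summed to 7.93 to 21.6, mostly Cd79b, with Pax5 at 0, and the 6 erythroid genes to 1.66 to 12.6, mostly Klf1 and Epor, with the globins Hba-a1 and Hbb-bs at 0. The 8 late neutrophil genes summed to 6568 to 7334 normalised CPM with empty vectors, 3028 to 4734 with SETBP1, 1987 to 2625 with NRAS and 808 to 916 with both. Ngp and Ltf made up most of these sums except with both mutants, where Ngp, Lcn2 and Mmp8 had means of 258, 233 and 193. Mmp9 and Cxcr2 of the same list had higher means with NRAS (145 and 41.8) than with empty vectors (74.3 and 19.8). The sums of the 10 mast cell and basophil genes stood in the same order, at 3144 to 3233, 1698 to 2433, 733 to 1241 and 410 to 596. Prss34 and Mcpt8 had the highest means of this list with empty vectors (1758 and 630). Of the 10, only Hdc had a higher mean with NRAS (312) than with empty vectors (225), and only Tpsb2 with SETBP1 (11.3 against 7.74). These shifts in cell markers ran alongside the receptor results below, their part in them was not tested, and in bulk RNA fewer cells of a type and less RNA per cell cannot be told apart.

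The Dectin-2 group holds members that changed in both directions, and its genes lie side by side on chromosome 6. From the annotation of GRCm38, 9 genes follow each other between positions 122921848 and 123289870 in the order Clec4a1, Clec4a3, Clec4a4, Clec4b1, Clec4a2, Clec4b2, Clec4n, Clec4d and Clec4e, with Clec4e alone on the minus strand. The sequences before the first base of 4 of them are shown because genes at the 2 ends of this cluster moved in opposite directions with NRAS: Clec4a1 and Clec4a3 at one end fell, and Clec4d and Clec4e at the other rose. Each run is the 250 bases upstream of the RefSeq start (build GRCm38.p6), 5′ to 3′ on the strand of the gene, at chr6:122921598-122921847 (plus) for Clec4a1, chr6:122952265-122952514 (plus) for Clec4a3, chr6:123261857-123262106 (plus) for Clec4d and chr6:123289872-123290121 (minus) for Clec4e. Capitals mark matches on either strand to the PU.1 core GAGGAA or the C/EBP palindrome TTGNNCAA, motifs of myeloid transcription factors.

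Clec4a1: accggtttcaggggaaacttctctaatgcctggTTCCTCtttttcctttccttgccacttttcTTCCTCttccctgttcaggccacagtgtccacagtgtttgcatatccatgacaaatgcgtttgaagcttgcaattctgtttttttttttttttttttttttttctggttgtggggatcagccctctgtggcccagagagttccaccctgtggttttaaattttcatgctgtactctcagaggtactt
Clec4a3: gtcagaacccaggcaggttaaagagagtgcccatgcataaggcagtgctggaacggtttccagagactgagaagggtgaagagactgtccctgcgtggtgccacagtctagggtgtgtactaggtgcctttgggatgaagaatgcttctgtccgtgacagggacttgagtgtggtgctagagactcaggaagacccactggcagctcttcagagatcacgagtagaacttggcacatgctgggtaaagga
Clec4d: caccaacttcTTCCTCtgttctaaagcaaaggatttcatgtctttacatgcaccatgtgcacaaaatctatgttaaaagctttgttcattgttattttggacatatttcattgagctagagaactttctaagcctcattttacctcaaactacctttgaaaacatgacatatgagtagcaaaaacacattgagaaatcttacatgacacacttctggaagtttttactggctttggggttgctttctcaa
Clec4e: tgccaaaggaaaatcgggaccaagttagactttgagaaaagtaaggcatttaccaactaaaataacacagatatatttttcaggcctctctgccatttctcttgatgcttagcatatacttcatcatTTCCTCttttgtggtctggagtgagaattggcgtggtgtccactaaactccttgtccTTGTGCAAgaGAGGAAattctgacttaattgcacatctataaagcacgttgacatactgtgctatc

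The PU.1 core (read as TTCCTC on the other strand) stood in 2 places before Clec4a1, in 1 before Clec4d and in 2 before Clec4e, and nowhere in the window of Clec4a3. The C/EBP motif was found in these 4 windows only before Clec4e, as TTGTGCAA from base -66 to -59, a few bases from the second PU.1 core. Over all 32851 windows of this length in the table, 23.3% held the PU.1 core and 5.65% the C/EBP motif. The AP-1 motif TGANTCA, searched on both strands and found in 6.75% of all windows, and the NF-kB motif, found in 7.25%, were in none of the 4. A window was listed for 53 of the 63 members and for 29 of the 34 tested. Among the 36 windows of the tested members, 16 held the PU.1 core, 4 the C/EBP motif, 2 the AP-1 motif and 3 the NF-kB motif. A match describes letters only and is not a measured binding site.

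Many of the 63 members had too few reads to test. No read was counted for 13 of them, 10 of which were Nlrp genes, and 16 more had between 1 and 63 counts over all 12 libraries and were left untested by the low-count filter. Those 16 included Tlr5, the flagellin receptor (63 counts), Tlr9, the receptor for unmethylated CpG DNA (18 counts), Tlr11 (8 counts), Tlr12 (6 counts) and Clec9a, a marker of cross-presenting dendritic cells (17 counts). The 34 tested members were 4 surface and 4 endosomal Toll-like receptors, all 4 Nod and Nlrc genes, 6 Nlrp genes, 8 genes of the Dectin-2 group, 4 of the Dectin-1 and NK-complex group and 4 other Clec genes. The filter asks for enough reads in at least 3 libraries, the size of a group, from any of the groups. A member that is high in a single group can therefore enter the test through that group.

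Compared per length of exon, which allows levels of different genes to be set side by side, the leading receptor differed between the groups. With empty vectors Clec12a, an inhibitory lectin of myeloid cells, stood first at 103 ± 6.21 normalised CPM per kilobase (mean ± SD, n = 3), ahead of Clec4n, which encodes Dectin-2, at 55.3 ± 5.13. With SETBP1, Clec4n had the highest mean at 184 ± 91.9 and Clec12a had 102 ± 8.56, and the lowest SETBP1 library of Clec4n (126) was above the highest of Clec12a (108). That order rests on the exon lengths used, 1420 bases for Clec4n and 5528 for Clec12a. By mean normalised CPM without length, Clec12a (562) stood above Clec4n (261) with SETBP1. With NRAS, Clec5a, a DAP12-coupled activating lectin, led at 142 ± 6.58, followed by Clec4d at 57.6 ± 5.98, Clec12a at 50.3 ± 3.28 and Clec4e at 44.1 ± 2.49, of which the last 3 lay close together. With both mutants Clec5a led again at 114 ± 14.0, and Clec4d at 75.9 ± 6.64 and Clec4n at 70.9 ± 16.0 did not differ beyond their spread. Clec12a, first with empty vectors, stood at 45.9 ± 0.331 there.

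**Figure D1:**
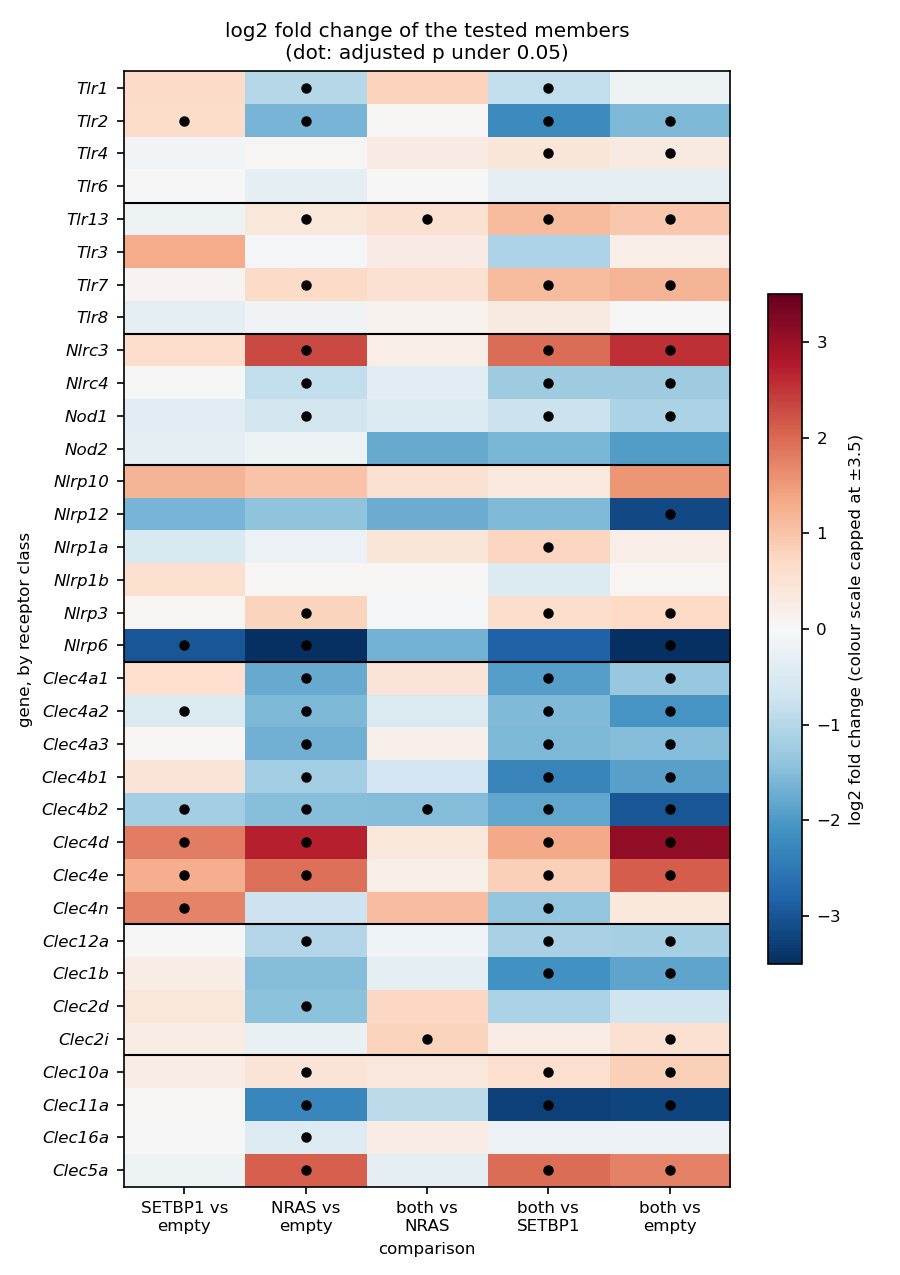
Heat map of the log2 fold change (colour, capped at ±3.5) of the 34 tested members (rows, grouped by receptor class between the black lines) in 5 comparisons (columns), with a dot where the adjusted p of edgeR's quasi-likelihood test was under 0.05. The Dectin-2 group holds dots in both colours, and the 2 columns that compare NRAS with no NRAS carry 22 and 23 dots, against 7 and 3 in the columns that compare SETBP1 with no SETBP1.

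Mutant NRAS alone changed 22 of the 34 tested members against empty vectors, 8 higher and 14 lower, at an adjusted p under 0.05 (edgeR's quasi-likelihood test, Benjamini-Hochberg adjustment over all 10993 tested genes). Of all genes tested, 32.5% were called in this comparison, 17% higher and 15.5% lower, against 64.7% of the members. Under library-size scaling the 1868 higher and 1708 lower calls over all genes became 1379 and 2265, and the members' 8 and 14 became 7 and 15. The median log2 fold change was -0.40 over the members and -0.01 over all genes. Among the Clec genes 4 rose and 9 fell of 16, among the Toll-like receptors 2 rose and 2 fell of 8, and among the NOD-like receptors 2 rose and 3 fell of 10. At a fold change of at least 2 as well, 14 members were called, beside 9.9% of all genes.

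Within the Dectin-2 cluster, all 5 tested genes from Clec4a1 to Clec4b2 were lower with NRAS, and Clec4d and Clec4e were higher. Clec4d, which encodes MCL, a receptor that pairs with Mincle, measured 13.5, 14.9 and 13.8 normalised CPM with empty vectors and 101, 92.9 and 82.1 with NRAS. The SETBP1 libraries had 35.2, 38.2 and 71.6 and the double-mutant libraries 126, 109 and 129, so the 4 groups did not overlap and stood in the order empty, SETBP1, NRAS, both. The change with NRAS was 2.71 on the log2 scale (SE 0.23, adjusted p = 9.85e-07 by edgeR).

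Clec4e, which encodes Mincle, the receptor for mycobacterial cord factor, measured 54.0, 67.2 and 52.1 normalised CPM with empty vectors, 114, 98.8 and 209 with SETBP1, 209, 216 and 233 with NRAS and 244, 239 and 274 with both. All NRAS libraries were above all empty-vector libraries, while the highest SETBP1 library reached the lowest NRAS library. The change with NRAS was 1.92 on the log2 scale (SE 0.22, adjusted p = 1.51e-05 by edgeR).

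On the other side of Clec4n in the cluster, Clec4a2 encodes DCIR, which carries an inhibitory motif. Its levels were 87.1, 81.7 and 83.4 normalised CPM with empty vectors, 54.0, 55.0 and 67.3 with SETBP1, 35.1, 25.2 and 25.0 with NRAS and 20.7, 21.1 and 18.0 with both. The 4 groups did not overlap, in the reverse order of Clec4d. The NRAS change was -1.56 (log2, SE 0.14, edgeR adjusted p = 1.77e-06). Its neighbours Clec4a1 (-1.78), Clec4a3 (-1.68), Clec4b2 (-1.48) and Clec4b1 (-1.22) fell with NRAS by similar log2 amounts. The call of Clec4b1, at 174 counts in all, was lost without any 1 of the empty-vector or NRAS libraries or replicate 3 of the double-mutant group. Genes of the Clec4a and Clec4b set are close copies of each other, and the rule for reads that fit several copies is not given in the sources used here, so reads may have been shared or lost between them. Clec4a4, between Clec4a3 and Clec4b1, had 14 counts and was not tested.

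Clec4n lay between the genes that fell and the genes that rose. It had 72.9, 86.7 and 75.8 normalised CPM with empty vectors and 57.3, 44.1 and 40.8 with NRAS. The groups did not overlap, with NRAS lower, but the change of -0.73 (log2, SE 0.28) did not pass the test (adjusted p = 0.0594 by edgeR). It was called without replicate 3 of the SETBP1 group, which enters the estimate of spread shared by all groups, and under 7 of 20 alternative settings in all.

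**Figure D2:**
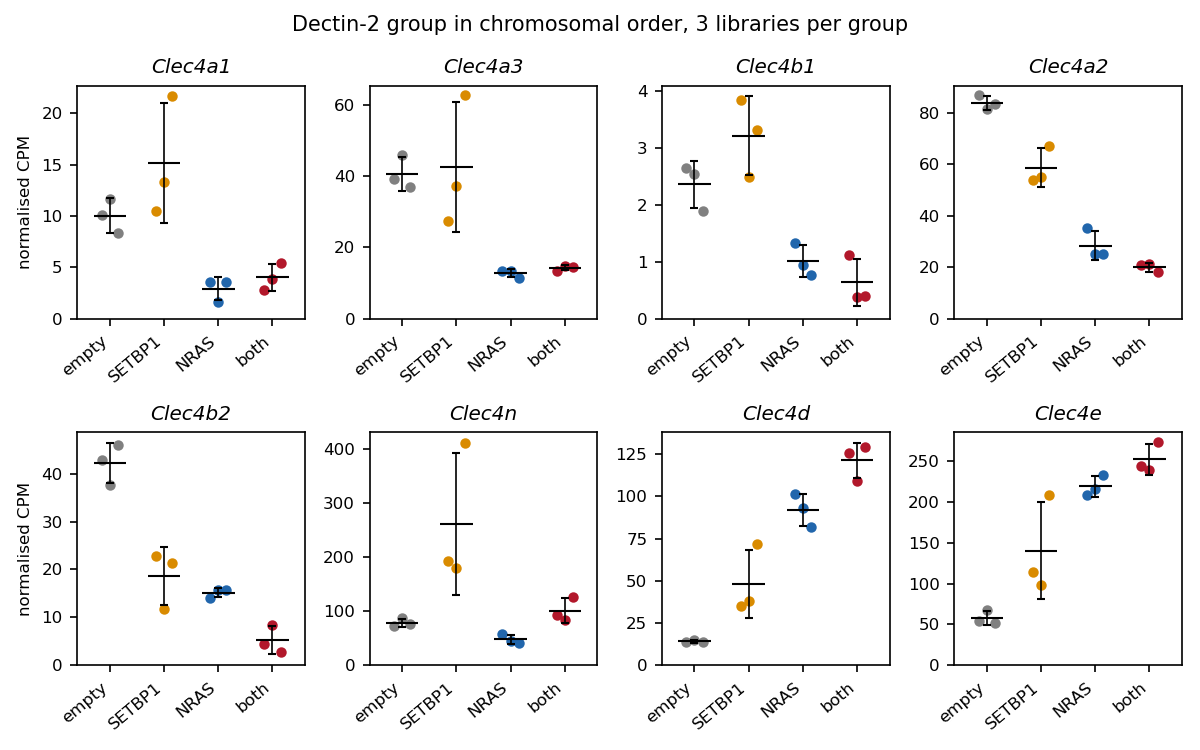
Normalised CPM (linear axis from 0) of the 8 tested Dectin-2 group genes in chromosomal order, with 1 point per library, a black line at the mean of 3 libraries and bars of 1 SD. Clec4a2 and Clec4b2 step down and Clec4d and Clec4e step up from empty vectors to both mutants, and the third SETBP1 library is the highest SETBP1 point for Clec4n, Clec4d and Clec4e.

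Outside the cluster, Clec5a had the rise with the lowest adjusted p. It measured 126, 134 and 125 normalised CPM with empty vectors, 109, 101 and 129 with SETBP1, 525, 534 and 572 with NRAS and 420.3, 393 and 497 with both. The 6 libraries with NRAS were all above the 6 without it. The NRAS change was 2.08 (log2, SE 0.10, edgeR adjusted p = 6.14e-09), a fold of 4.24. Clec5a lies on chromosome 6 as well, at 40574894 to 40585821, far from the Dectin-2 cluster.

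Clec12a moved the other way. Its levels were 595, 584 and 531 normalised CPM with empty vectors, 582, 508 and 596 with SETBP1, 280.4, 295 and 259 with NRAS and 255, 252 and 255 with both. Every library with NRAS was below every library without it. It fell by 1.03 on the log2 scale with NRAS (SE 0.08, edgeR adjusted p = 4.16e-07). Clec11a, which encodes a secreted growth factor for blood and bone progenitors and not a pattern receptor, fell by 2.27 from a low level, 4.06 to 4.72 normalised CPM with empty vectors against 0.761 to 1.06 with NRAS.

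Further NRAS changes were found for Clec10a, a galactose-type lectin of macrophages, which rose by 0.44 on the log2 scale, and for Clec16a, an autophagy-related gene without a receptor role, which fell by 0.46. Clec2d, a ligand of an NK-cell receptor, fell by 1.43. The adjusted p-values of these 3 were 0.0373, 0.0466 and 0.0339 by edgeR, and each lost its call under 6 to 11 of its 19 or 20 alternative settings. Clec2i, another gene of the NK-complex region, was not called with NRAS (log2 change -0.26, adjusted p = 0.212).

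**Figure D3:**
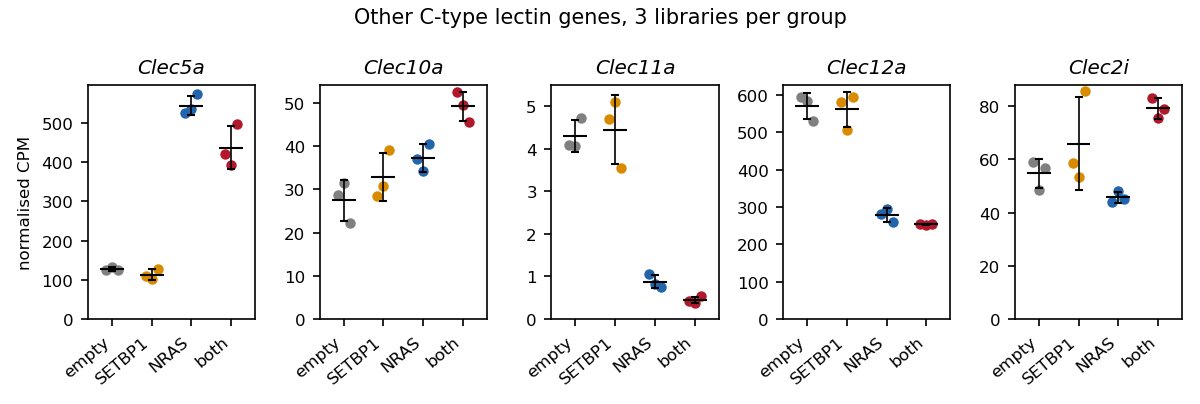
Normalised CPM (linear axes from 0) of 5 Clec genes outside the Dectin-2 cluster, with 1 point per library, the mean of 3 libraries as a line and bars of 1 SD. Clec5a is at 393 or more in every library with NRAS and at 134 or less in every library without it, and Clec12a and Clec11a are separated the opposite way.

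Among the Toll-like receptors at the cell surface, Tlr2 and its partner Tlr1 were lower with NRAS, and Tlr4 and Tlr6 were not called. Tlr2, which recognises bacterial lipoproteins, measured 96.7, 87.0 and 80.3 normalised CPM with empty vectors, 114, 123 and 176 with SETBP1, 36.2, 23.5 and 25.4 with NRAS and 30.6, 26.5 and 30.9 with both. The SETBP1 libraries were highest, the empty-vector libraries next, and the 2 groups with NRAS were lowest and overlapped each other. The NRAS change was -1.63 (log2, SE 0.18, edgeR adjusted p = 1.41e-05). Tlr1 fell from 7.87 to 9.04 normalised CPM with empty vectors to 3.96 to 4.44 with NRAS, by 0.99 on the log2 scale (adjusted p = 0.0105). Tlr4, the lipopolysaccharide receptor, had 60.1, 57.8 and 61.0 with empty vectors and 59.7, 57.8 and 66.0 with NRAS, overlapping groups with a log2 change of 0.04 (SE 0.12). Tlr6, the other partner of Tlr2, had a log2 difference of -0.35 (SE 0.27, adjusted p = 0.35).

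Of the endosomal receptors, those for RNA on the X chromosome differed among themselves. Tlr7, which senses single-stranded RNA, measured 12.8, 14.0 and 16.9 normalised CPM with empty vectors, 17.9, 14.9 and 13.8 with SETBP1, 22.6, 22.7 and 23.6 with NRAS and 31.0, 31.7 and 37.4 with both. The groups without NRAS overlapped, and NRAS and then both mutants stood above them. The NRAS change was 0.66 (log2, SE 0.15, edgeR adjusted p = 0.0038). Tlr13, which senses bacterial ribosomal RNA, rose with NRAS by 0.41 (SE 0.12, adjusted p = 0.0155), from 34.2, 34.5 and 37.2 to 49.9, 39.4 and 51.3. The NRAS call of Tlr13 was lost without replicate 1 or 2 of the empty-vector group or replicate 1 or 3 of the NRAS group. Tlr8 and Tlr3, a sensor of double-stranded RNA, were not called in any comparison.

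The NOD-like receptors split by gene too. Nod1, a sensor of bacterial peptidoglycan fragments, measured 56.5, 43.6 and 49.8 normalised CPM with empty vectors, 46.5, 40.9 and 28.3 with SETBP1, 32.4, 30.7 and 32.6 with NRAS and 20.7, 23.2 and 25.3 with both. The groups with NRAS were below the empty-vector group without overlap, and the SETBP1 group overlapped both the empty-vector and the NRAS group. The NRAS change was -0.65 (log2, SE 0.16, edgeR adjusted p = 0.00756). Nlrc4, the inflammasome sensor that works with NAIP proteins, fell with NRAS by 0.85 (SE 0.21, adjusted p = 0.00616), from 10.6, 11.8 and 11.9 to 5.55, 7.98 and 5.45. Nlrp3, the best-known inflammasome sensor, rose by 0.77 (SE 0.20, adjusted p = 0.00776), from 11.2, 10.9 and 7.83 to 16.5, 17.9 and 17.0, with no overlap. Nod2, at 86 counts in all, was not called in any comparison.

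The remaining NOD-like calls rested on few reads. Nlrc3, described as a negative regulator of inflammatory signalling, rose from 0.221, 0.889 and 0.675 normalised CPM to 2.51, 2.44 and 3.93 with NRAS, a log2 change of 2.32 (SE 0.59, edgeR adjusted p = 0.00783). Nlrp6, best known in the gut epithelium, fell from 2.32, 3.30 and 4.72 to 0, 0.406 and 0.127, a fitted log2 change of -4.17 (SE 0.86, adjusted p = 0.00208). The raw counts of Nlrp6 were 21, 26 and 35 with empty vectors, 2, 8 and 0 with SETBP1, 0, 3 and 1 with NRAS and 0, 0 and 1 with both. Of the 9 libraries with a mutant, 8 were at or under the floor of 3 counts per library, equal to 0.332 to 0.42 normalised CPM, so the size of the fold is uncertain. Nlrp6 passed the low-count filter through the empty-vector group alone, so the filter itself favoured a fall from that group. Nlrc3, with 2, 7 and 5 counts with empty vectors, entered the test through the groups with NRAS, which favoured a rise there.

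**Figure D4:**
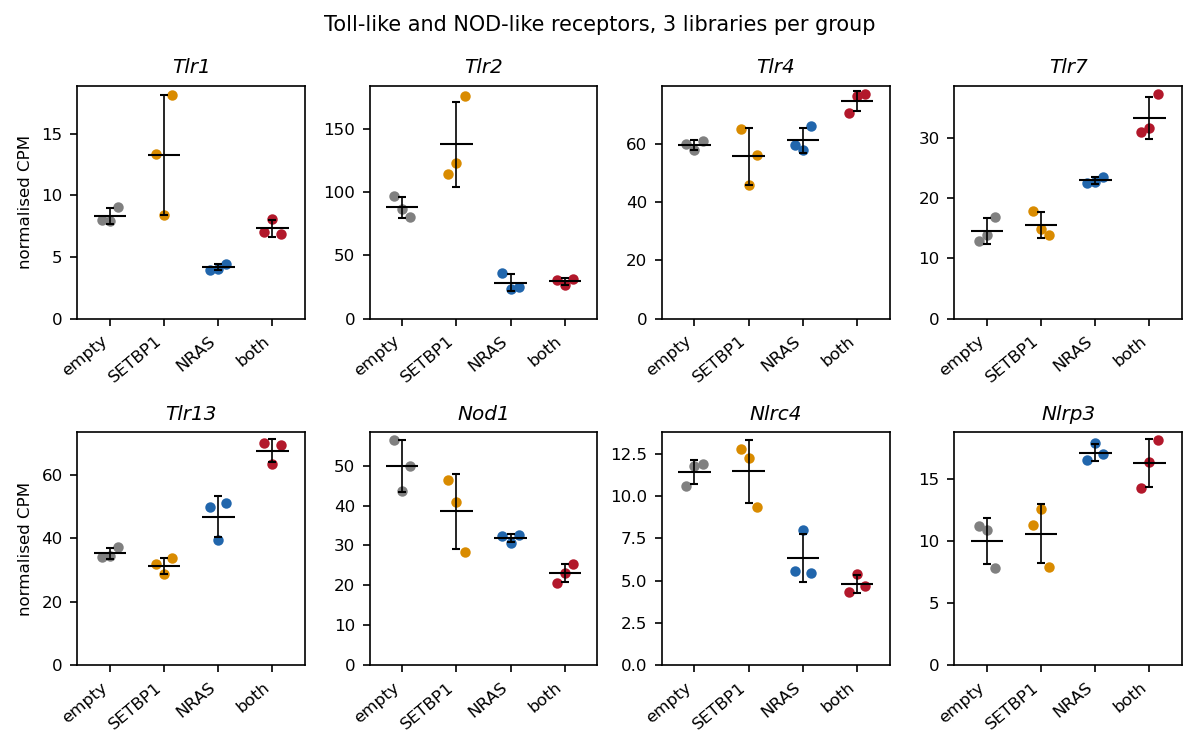
Normalised CPM (linear axes from 0) of 5 Toll-like and 3 NOD-like receptor genes, with 1 point per library, the mean of 3 libraries as a line and bars of 1 SD. Tlr2 lies at 36.2 or less and Nod1 at 32.6 or less in every library with NRAS, and Tlr7 and Nlrp3 lie higher there than with empty vectors. For Nod1 a library with SETBP1 alone lies at 28.3, so that bound does not separate the libraries by NRAS.

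Mutant SETBP1 alone changed 7 of the 34 tested members against empty vectors, 4 higher and 3 lower (edgeR). The share of 20.6% stood beside 14.9% of all genes tested in this comparison, of which 8.31% were higher and 6.55% lower, and the median log2 change was 0.07 over the members and -0.01 over all genes. Of the 7, 5 belonged to the Dectin-2 group. Clec4d rose by 1.78 (log2, SE 0.23, adjusted p = 0.000905), Clec4n by 1.73 (SE 0.27, adjusted p = 0.00256) and Clec4e by 1.28 (SE 0.21, adjusted p = 0.00369). Clec4n had 192, 179 and 411 normalised CPM with SETBP1, all above the 72.9 to 86.7 of the empty-vector group. Clec4b2 fell by 1.18 (SE 0.28, adjusted p = 0.0163), with 42.9, 37.7 and 46.0 against 22.8, 11.6 and 21.4, and Clec4a2 fell by 0.52 (SE 0.13, adjusted p = 0.0232).

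The other SETBP1 calls were Tlr2, which rose by 0.65 (log2, SE 0.17, edgeR adjusted p = 0.0245), and Nlrp6, with the few counts given above. For each of the 7 the SETBP1 libraries were clear of the empty-vector libraries. Such separation was found for 9 of the 34 tested members in all, beside 33.2% of all genes tested. The 10 dendritic cell markers summed to 313 to 433 normalised CPM with empty vectors and to 581, 639 and 1012 with SETBP1, highest in replicate 3. Cd74 and H2-Ab1 made up most of that sum, with means of 482 and 246 with SETBP1, 2 of the 6 tested markers were called, both higher, and Cd209a had no count with SETBP1. The 7 megakaryocyte and platelet genes summed to 221 to 263 with empty vectors and to 296, 308 and 628 with SETBP1, again highest in replicate 3. Pf4 had means of 76.8 and 218. Of the 7, 2 were called, both higher, and 3 had negative log2 changes. Itga2b had a lower mean with SETBP1 (64.9) than with empty vectors (89.3). The 10 monocyte and macrophage genes summed to 4215 to 4624 and to 4583, 4756 and 5716, and 3 of the 9 tested were called, all higher. The part of these 3 marker lists in the SETBP1 results was not tested. Replicate 3 was the highest SETBP1 library for Clec4n, Clec4d, Clec4e and Tlr2. Without it the changes were 1.38 for Clec4d, 1.24 for Clec4n, 0.88 for Clec4e and 0.43 for Tlr2, and all 7 calls were kept, with Clec5a (-0.29) and Nlrp10 (1.60) added. In a fit of the 6 libraries of these 2 groups alone, where the uneven SETBP1 group is not pooled with the others, 2 calls remained, Clec4d and Clec4n, beside 1.03% of all genes. Without replicate 1 or 3 of the empty-vector group 4 and 3 members were called, beside 4.44% and 3.5% of all genes. Without replicate 1 of the SETBP1 group 11 members were called, beside 28.7% of all genes.

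The next question was what SETBP1 added where NRAS was already present. Between the double-mutant and the NRAS group 3 members were called, 2 higher and 1 lower. These were 8.82% of the members, beside 1.91% of all genes tested, of which 0.528% were higher and 1.38% lower, and the median log2 change was 0.14 over the members and 0.00017 over all genes. Clec2i measured 83.1, 75.4 and 78.8 normalised CPM with both and 44.0, 48.0 and 45.3 with NRAS alone, a log2 rise of 0.79 (SE 0.15, edgeR adjusted p = 0.0141). Tlr13 measured 70.1, 63.6 and 69.6 against 49.9, 39.4 and 51.3, a rise of 0.53 (SE 0.11, adjusted p = 0.0309). Clec4b2 measured 4.48, 8.45 and 2.69 against 14.0, 15.7 and 15.7, a fall by 1.53 (SE 0.33, adjusted p = 0.0285). It was the single member called both here and for SETBP1 alone, beside 120 of all genes tested.

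In all 3 genes the double-mutant libraries were clear of the NRAS libraries, as in 20 of the 34 tested members and 25.2% of all genes. The calls were close to the threshold. None of the 3 was called without any 1 of the NRAS libraries, or without replicate 1 or 3 of the double-mutant group, and 1 was called without replicate 1 of the empty-vector group. Without replicate 3 of the SETBP1 group, which is not part of this comparison but enters the common estimate of spread, 11 members were called, among them Clec4n (1.09), Tlr7 (0.54), Tlr1 (0.81) and Clec4d (0.40) higher and Clec5a (-0.32), Nod1 (-0.47) and Clec4a2 (-0.51) lower. Of all genes 7.52% were called in that fit. With the 2 groups alone in the fit 12 members were called beside 8.37% of all genes, and DESeq2 called 6 beside 3.45%.

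**Figure D5:**
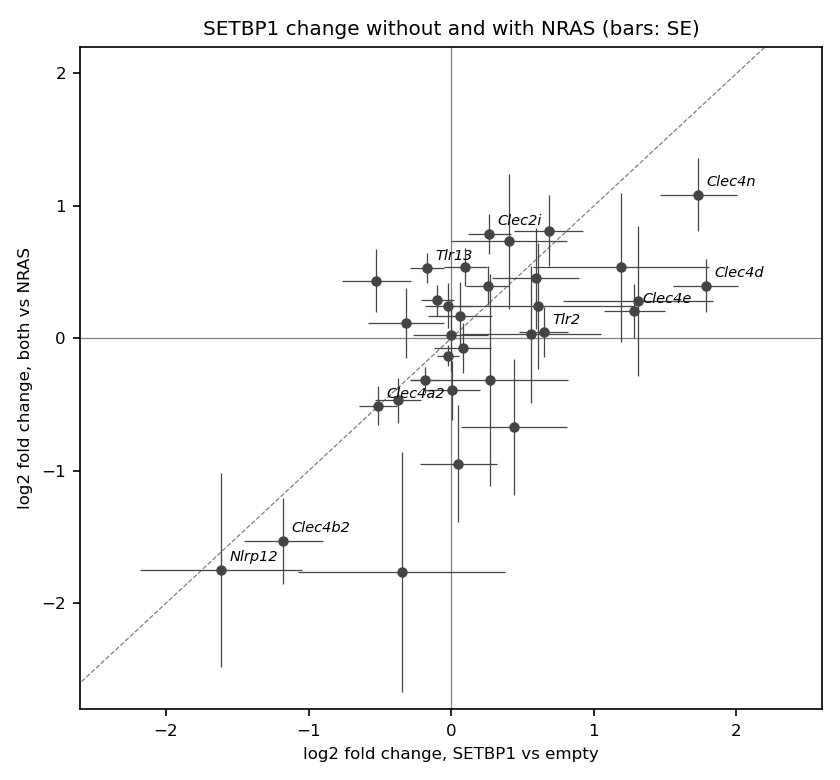
Log2 fold change with SETBP1 in the absence of NRAS (x axis) and in its presence (y axis) for 33 tested members, with bars of 1 SE and a dashed line of equal change; Nlrp6 is left out because its SE exceeds 1. Clec4d and Clec4e lie to the right of the line, with changes of 1.78 and 1.28 without NRAS and 0.40 and 0.20 with it, and Tlr13 and Clec2i lie above it.

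These 2 estimates of the SETBP1 change share no library. Their direction was the same for 23 of 34 members (67.6%) and for 64.3% of all genes tested. The difference between them, the interaction term, was past the threshold for 0 members by edgeR, beside 0.0455% of all genes (0.0091% higher and 0.0364% lower), with 7 members at an unadjusted p under 0.05. DESeq2 called 3, Clec4d (-1.39, adjusted p = 0.00359) and Clec4e (-1.08, adjusted p = 0.0411) lower and Tlr13 (0.70, adjusted p = 0.0212) higher, and gave no adjusted p for 19. By edgeR the adjusted p was 0.172 for Clec4d, 0.208 for Clec4e and 0.178 for Tlr13. Without replicate 3 of the SETBP1 group edgeR called these 3 and Clec2i, with interactions of -0.99, -0.68, 0.75 and 0.76 in that order. Of all genes 0.846% were called by DESeq2 and 0.99% by edgeR without that library.

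The NRAS change was also measured on top of SETBP1, by comparing the double-mutant with the SETBP1 group. There 10 members rose and 13 fell, 67.6% of the members beside 42.4% of all genes tested, of which 20.9% were higher and 21.5% lower. The median log2 change was -0.80 over the members and -0.0046 over all genes. The 2 NRAS comparisons share no library. Of the members, 30 of 34 (88.2%) had the same sign in both, as did 78.5% of all genes. Called in both were 19 members, each in the same direction. Over all genes tested 2720 were called in both, 2717 of them in the same direction. All 8 tested Dectin-2 group genes were called here, 2 higher and 6 lower. Clec4n was among those that fell, by 1.37 (log2, SE 0.27, edgeR adjusted p = 0.00104), from 192, 179 and 411 normalised CPM with SETBP1 to 93.1, 82.7 and 126 with both. Clec4d rose by 1.33 and Clec4e by 0.84, beside 2.71 and 1.92 measured from empty vectors, a difference that the interaction term tests. Under library-size scaling the 2293 higher and 2368 lower calls over all genes became 1720 and 2888, and the members' became 9 and 14. Without replicate 3 of the SETBP1 group 27 members were called, beside 46.5% of all genes, and the changes were -0.88 for Clec4n, 1.73 for Clec4d and 1.25 for Clec4e.

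Tlr2 fell by 2.23 in this comparison (SE 0.18, edgeR adjusted p = 6.06e-07) and Clec5a rose by 1.95 (SE 0.10, adjusted p = 9.45e-09). Tlr13 rose by 1.11 and Tlr7 by 1.10, and Tlr4 by 0.42 (adjusted p = 0.0104). Clec11a fell by 3.27, to 3, 3 and 4 counts with both mutants and so by an uncertain fold, and Nlrc4 fell by 1.25. Nlrp1a, an inflammasome sensor next to its close copy Nlrp1b, rose by 0.75 (adjusted p = 0.0228), from 6.98, 6.27 and 5.32 to 9.51, 11.8 and 9.96; it was not called against the other groups, and reads of the 2 copies may have been shared.

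Both mutants together were set against empty vectors as the widest contrast, in which 10 members rose and 13 fell, 67.6% of the members beside 40.6% of all genes tested, of which 20.8% were higher and 19.8% lower. Under library-size scaling the 2282 higher and 2180 lower calls over all genes became 1656 and 2908, and the members' became 9 and 13. The members' median log2 change was -0.20, against -0.0094 over all genes. The largest rise was that of Clec4d, 3.11 on the log2 scale (SE 0.23, edgeR adjusted p = 1.58e-07), a fold of 8.64, followed by Nlrc3 (2.56), Clec4e (2.13) and Clec5a (1.77). Tlr7 rose by 1.20, Tlr13 by 0.94, Clec10a by 0.84, Nlrp3 by 0.70 and Clec2i by 0.53. Tlr4 rose by 0.33 (adjusted p = 0.0381), from 60.1, 57.8 and 61.0 to 70.6, 76.5 and 77.0, and lost the call under library-size scaling, with a mean count of at least 50, and without any 1 of the empty-vector or double-mutant libraries or replicate 1 of the NRAS group.

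The largest fall was that of Nlrp6, near the floor and tested through its empty-vector counts. Next came Clec11a (-3.22), Nlrp12 (-3.17) and Clec4b2 (-3.01, SE 0.32, edgeR adjusted p = 5.21e-06). In the double-mutant libraries Clec11a had 3, 3 and 4 counts and Nlrp12 2, 4 and 6. These lay at or near the floor of 3 counts, so the size of these 2 falls and their rank are uncertain. Nlrp12, a NOD-like receptor of neutrophils and monocytes, had 2.88, 4.06 and 7.96 normalised CPM with empty vectors and 0.280, 0.512 and 0.807 with both (SE 0.67, adjusted p = 0.00184), with 210 counts in all. Clec4a2 fell by 2.07, Tlr2 by 1.58, Clec4a3 by 1.51, Clec4a1 by 1.32, Nlrc4 by 1.24, Clec12a by 1.17 and Nod1 by 1.12. Clec4n ended at 93.1, 82.7 and 126 against 72.9, 86.7 and 75.8 with empty vectors, overlapping groups with a log2 difference of 0.36 (adjusted p = 0.31). Its highest group was therefore SETBP1 alone, and the other 3 groups lay between 40.8 and 126.

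Of the 34 tested members, groups did not overlap for 9 in the SETBP1 against empty comparison (33.2% of all genes tested). The number was 25 with NRAS against empty vectors (56.3%) and 20 with both against NRAS (25.2%). It was 24 with both against SETBP1 (48.8%) and 25 with both against empty vectors (61.2%).

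Summed over a class, the levels followed their most abundant genes. The 12 Toll-like receptors summed to 222 to 235 normalised CPM with empty vectors, 241 to 321 with SETBP1, 168 to 194 with NRAS and 227 to 246 with both. Surface receptors among them summed to between 161 and 172 with empty vectors and between 93.4 and 108 with NRAS. Endosomal ones summed to between 61.3 and 69.2 with empty vectors, between 74.5 and 89.6 with NRAS and between 110.4 and 124 with both. The Nod and Nlrc genes summed to 57.3 to 68.1 with empty vectors, 39.9 to 61.4 with SETBP1, 42.2 to 42.3 with NRAS and 28.0 to 34.0 with both.

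The partners of these receptors were followed with a list of 56 genes for co-receptors, adaptors, inflammasome proteins and lectin signalling, of which 54 were tested. With NRAS 10 rose and 14 fell, 44.4% of the list beside 32.5% of all genes. With SETBP1 8 rose and 6 fell, 25.9% beside 14.9%, and the results of this list are not given without replicate 3 of the SETBP1 group. With both against empty vectors 12 rose and 18 fell, 55.6% of the list beside 40.6% of all genes. Cd14, the co-receptor that hands lipopolysaccharide to Tlr4, had 32.8 ± 6.26 normalised CPM (mean ± SD, n = 3) with empty vectors, 96.8 ± 44.1 with SETBP1, 358 ± 10.4 with NRAS and 349 ± 65.7 with both. The Cd14 changes against empty vectors were 1.56 with SETBP1 and 3.44 with NRAS on the log2 scale (edgeR adjusted p = 0.00306 and 4.23e-07), while Tlr4 itself was called in neither.

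Other co-receptors moved differently. Lbp, which binds lipopolysaccharide, fell by 1.11 with NRAS and by 1.62 with both, and was 1 of the 2 list genes called between both mutants and NRAS alone (-0.52, edgeR adjusted p = 0.0395). Those 2 were 3.7% of the list, beside 1.91% of all genes tested. Cd180, a Toll-like relative, rose with NRAS by 1.16, and its partner Ly86 fell by 0.95. Ticam2, the adaptor that links Tlr4 to TRIF, fell by 1.08 with NRAS, whereas Myd88 was called in none of the comparisons (136.5 ± 6.12 normalised CPM with empty vectors and 127 ± 4.02 with both mutants).

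On the NOD-like side, Slc15a3, an endosomal transporter of peptidoglycan fragments, rose with SETBP1 (1.15), with NRAS (1.74) and with both against NRAS alone (0.91, edgeR adjusted p = 0.0229), from 8.03 ± 2.51 normalised CPM with empty vectors to 50.4 ± 9.25 with both. Il1b, whose protein is cut to its active form by caspase-1, rose by 2.05 with SETBP1 and by 1.71 with NRAS, and Il18 by 1.25 and 0.97. Pycard, the ASC adaptor, rose by 0.43 with NRAS. In lectin signalling, Fcer1g, the FcRγ chain used by Mincle and Dectin-2, rose by 0.48 with SETBP1 (adjusted p = 0.0431) and was not called with NRAS (0.19). Hcst, the DAP10 adaptor, fell by 1.05 with NRAS, Card9 by 0.54, and Tyrobp, the DAP12 adaptor of Clec5a, was not called with NRAS (-0.17).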

How the data were processed

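Libraries were prepared by SMART-Seq chemistry from total RNA, per the labels. The authors deposited raw counts of 19910 gene symbols in 12 libraries, in whole numbers. STAR, DESeq2 and the build mm10 are named in the submitters' processing notes, and the rules for strand and for reads that fit several genes are not given in the sources used here.

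From the counts, edgeR 4.0.16 (R 4.3.3) was used with trimmed mean of M-values scaling and filterByExpr (minimum count 10, minimum total 15), which kept 10993 genes with 99.9% of the counts. The quasi-likelihood fit held 4 group means over the 12 libraries, and 6 contrasts were tested, two-sided, with Benjamini-Hochberg adjustment over all genes and a threshold of 0.05. Normalised CPM used the scaled library sizes. Lengths and gene positions are from GENCODE M21 (GRCm38), promoter windows from RefSeq. The steps were tested on simulated counts. Library totals were alike, and counting error is relatively largest for members with few counts.

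Members and lists were chosen with earlier results of these data known. Named members were the 3 most abundant of each class, all those called in both against NRAS or in the interaction, and the 6 largest called changes per direction in each other comparison with a mean count of at least 20 in 1 group; Tlr3, Tlr5, Tlr6, Tlr9, Tlr11, Tlr12, Clec9a, Nod2, Nlrp10, Nlrp1b and Clec4a4 are named beyond the rule. Alternatives were DESeq2 1.42.0, other scalings, filters and thresholds, only the groups compared, the replicate block and leaving out each library. The 1 symbol left out is not reported here. No pairing by replicate number was seen: same-numbered deviations correlated from -0.127 to 0.124, and other pairs between groups from -0.141 to 0.16. With 3 libraries per group this cannot exclude that same-numbered libraries shared a mouse or transduction.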

Additional observations from a re-analysis of the deposited data

How the results depend on the processing

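No member changed direction while called under any alternative. Of the member results, 3747 kept their side of the threshold, 101 lost and 70 gained a call. These 3 numbers leave out results without an adjusted p and the alternatives of an adjusted p under 0.01 and a fold change of at least 2. Those 2 stricter rules lost further calls, with 16 and 14 members left for NRAS against empty vectors. The counts of members called kept within 1.5 times of 23 for both mutants against SETBP1 and against empty vectors, with 21 to 27 and 20 to 26 on leaving out a library. For SETBP1 against empty vectors (7) the count was 2 with only the groups compared, 3 at an adjusted p under 0.01 and 3 to 11 on leaving out a library. For NRAS against empty vectors (22) it was 14 at a fold change of at least 2 and 17 to 26 on leaving out a library. For both against NRAS (3) it was 6 with DESeq2, 12 with only the groups compared, 0 at an adjusted p under 0.01, 1 at a fold change of at least 2 and 0 to 11 on leaving out a library. For the interaction (0) it was 3 with DESeq2 and 0 to 4 on leaving out a library. Apart from the fits that use fewer libraries or a stricter rule, the cause was not tested. The replicate block gave 7, 19, 2, 24, 23 and 0 members in the order SETBP1, NRAS and both against NRAS, against SETBP1 and against empty vectors, and the interaction; with it Clec4b2 was no longer called for both against NRAS. Under library-size scaling the median log2 change of all genes was -0.10 with NRAS (otherwise -0.0075) and -0.13 with both against empty vectors (otherwise -0.0094), and the calls for both against NRAS were then 2 higher and 2 lower in place of 2 and 1. Nlrp6 and Nod2 had 97 and 86 counts in all, where counting error is large.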

Other observations

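C-type lectins whose symbols do not start with Clec were looked at after the values of the members were known, in a list of 12 genes chosen then. Mgl2, a galactose-type lectin of macrophages and the close relative of Clec10a, was the most abundant, with 575 ± 60.4 normalised CPM (mean ± SD, n = 3) with empty vectors, 555 ± 60.8 with SETBP1, 1493 ± 228 with NRAS and 1748 ± 147 with both. It rose with NRAS by 1.38 on the log2 scale (edgeR adjusted p = 1.48e-06), and reads of it and Clec10a may have been shared. Mrc1, the macrophage mannose receptor, rose with NRAS by 0.82 (adjusted p = 0.0116) and again with both against NRAS alone by 1.13 (adjusted p = 0.0137), from 31.7 ± 10.7 with empty vectors over 56.2 ± 7.45 to 123 ± 21.6. Selp, the P-selectin of platelet adhesion, rose with NRAS by 1.06.

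Lectins of the same list that fell with NRAS were Cd302, an endocytic receptor (-1.55), Klrb1f, an NK-type receptor (-1.37), and Klrk1, which encodes NKG2D (-1.33). Cd302 had risen with SETBP1 alone (1.03, edgeR adjusted p = 0.0188), to 51.1 ± 19.7 normalised CPM from 24.9 ± 5.01. Its SETBP1 libraries had 35.3, 44.8 and 73.2, highest in replicate 3. Cd69, an early activation marker, was higher with SETBP1 (0.63) and with NRAS (0.70). Cd209a, the mouse relative of DC-SIGN, had 4 counts in all and was not tested.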
